A study of Mus musculus with 15 samples.

Results

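Cx3cr1 and Tgfbr2 both lie on mouse chromosome 9, the array's clusters for them starting 3.964 Mb apart, and the genes described here are those around and between them. They were chosen by position, with earlier results of these data known. Taken was every transcript cluster (the set of probes that an array assigns to a locus) of this part of chromosome 9 in the deposited RMA table with exactly 1 gene symbol. The starts lie between position 112065091 (Arpp21) and position 121981606 (Pomgnt2), and Tgfbr2 and Myd88 were left out. Of 136 clusters in this stretch of 9.917 Mb, 3 had no symbol and 2 were left out, which gave 131 clusters of 130 genes among 32471 tested clusters. Positions are as in the deposited annotation, for which no source read here names a genome build. In the RefSeq annotation of GRCm38.p6 a gene of the same symbol exists for 108 of the 131 clusters, and 106 of these overlap it.

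Expression was measured in adult microglia on 15 Affymetrix Mouse Gene 2.0 ST arrays, 1 per mouse: 6 Cre/+ TAM mice, 3 Cre/+ OIL mice and 6 wt TAM mice, all of strain C57BL/6. All mice carried floxed Tgfbr2 (Tgfbr2 fl/fl, with loxP sites around part of the gene) and the R26-yfp reporter. Cre/+ TAM mice had in addition the Cx3cr1CreERT2 allele and received 8 mg tamoxifen in corn oil, injected 2 times with 48 h in between. Cre/+ OIL mice had the same alleles and received oil in place of tamoxifen, and wt TAM mice were littermates without the Cre allele that received tamoxifen. Injections were given at an age of 6 to 8 weeks, and microglia were taken 4 weeks later. Expression of Cre follows Cx3cr1, which is active in microglia and in other macrophages as well. The labels give a CD11b+/CD45low sort for every sample, whereas the study's text describes YFP+/CD45low cells for Cre/+ TAM mice and CD11b+/CD45low cells for wt TAM mice. Cre/+ OIL mice differed from wt TAM mice in the injection as well, so that in this comparison the allele and the injection cannot be told apart.

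Cx3cr1 encodes the receptor for fractalkine, a chemokine that neurons display and shed, and it is among the most strongly expressed receptors of microglia. CreERT2 is a recombinase that enters the nucleus once tamoxifen is bound, and in the Cx3cr1CreERT2 line it was placed into the Cx3cr1 locus, so Cre/+ mice keep a single unmodified copy of the gene. Linked genes on the same chromosome tend to be inherited together with a targeted allele, and DNA of the strain in which an allele was made can stay around it after many generations of backcrossing. The comparison of both Cre/+ groups with wt TAM mice asks whether the genes around these loci differed between mice with and without the Cre allele.

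The promoter of Cx3cr1 is printed because it belongs to the locus that carries the Cre allele, from RefSeq, chr9:120068247-120068546 on the minus strand of GRCm38.p6, with 250 bases before the start and 50 after it. Capitals mark the letters GGAA on either strand, the core bound by ETS factors such as PU.1, which is required for macrophages and microglia.
Cx3cr1 promoter: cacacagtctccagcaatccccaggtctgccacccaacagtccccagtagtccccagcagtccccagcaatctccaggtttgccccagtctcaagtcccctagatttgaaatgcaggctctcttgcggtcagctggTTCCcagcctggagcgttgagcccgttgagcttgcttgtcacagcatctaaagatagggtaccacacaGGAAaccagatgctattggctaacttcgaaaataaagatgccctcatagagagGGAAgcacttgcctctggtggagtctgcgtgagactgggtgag
GGAA occurred 3 times in this window (2 times on the strand shown, 1 time on the other), and 96% of 32851 RefSeq promoters of the same length hold it at least once on either strand. The longer form GAGGAAGT was not in this window on either strand, and 3.2% of all promoters hold it. The same holds for the TATA box letters TATAAA, which 13.6% of all promoters hold.

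Among the 130 genes are 3 microRNA genes, whose mature sequences are given with the seed (bases 2 to 8) in capitals because 2 of them lie inside protein-coding genes described below, Mir128-2 in Arpp21 and Mir26a-1 in Ctdspl. The sequences are from RefSeq, GRCm38.p6, and all 5 are on chromosome 9.
mmu-miR-128-3p: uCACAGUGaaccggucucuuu
mmu-miR-128-2-5p: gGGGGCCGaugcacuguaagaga
mmu-miR-26a-5p: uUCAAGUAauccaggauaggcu
mmu-miR-26a-1-3p: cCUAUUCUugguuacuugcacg
mmu-miR-467h: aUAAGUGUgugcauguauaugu
No seed was shared among the 5. The array clusters of these genes cover the hairpin locus and do not measure the mature microRNA.

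Arrays were alike, with correlations of 0.9601 to 0.988 between pairs of arrays over all tested clusters. Markers of microglia averaged 9.99 to 10.47 log2 in Cre/+ TAM mice, 10.22 to 10.52 in Cre/+ OIL mice and 10.13 to 10.55 in wt TAM mice. Cx3cr1 is itself 1 of these 9 markers, and another, Siglech, had 9.81 and 10.15 in Cre/+ TAM mice 1 and 2, against at least 10.5 in every other mouse. The 9 markers of border-associated macrophages averaged 6.81 in Cre/+ TAM mouse 1 and 5.38 in Cre/+ TAM mouse 2, at most 4.60 in the other Cre/+ TAM mice, 3.77 to 3.94 in Cre/+ OIL mice and 3.85 to 4.03 in wt TAM mice. Mrc1, Pf4 and Ms4a7 lay above every wt TAM mouse in all 6 Cre/+ TAM mice, and in mouse 2 they had 8.30, 8.56 and 8.48. For these genes and Cd163, Cre/+ TAM mice 1 and 2 were the 2 highest mice. For Lyve1, F13a1, Clec10a, Cd209f and Cbr2 they were not the 2 highest. Mouse 1 alone was the highest of all mice for F13a1 (6.84, the others at most 4.43) and Clec10a (4.73, the others at most 2.44). It was not the highest for Lyve1, Cd209f or Cbr2. Cbr2 was lower in mouse 2 (4.25) than in any other Cre/+ TAM mouse. Neutrophil markers reached an average of 3.74 in Cre/+ TAM mice, 6.70 in Cre/+ OIL mouse 3 and 6.09 in wt TAM mouse 2. Among them S100a8 had 8.55 in Cre/+ OIL mouse 3, against 2.39 and 2.37 in Cre/+ OIL mice 1 and 2. It had 8.22 in wt TAM mouse 2, against at most 4.79 in the other wt TAM mice. Wt TAM mouse 2 also had the lowest Cx3cr1 of its group (11.39), and a link to these markers was not tested. Tgfbr2 itself lay at 7.91 to 8.36 in Cre/+ TAM mice, 7.94 to 8.49 in Cre/+ OIL mice and 7.91 to 8.26 in wt TAM mice. Its cluster has 24 probes, and how many of them lie in the floxed part was not determined, so this level does not check the deletion. The titles of 3 arrays (Cre/+ OIL mice 1 and 2, wt TAM mouse 3) contain the word neg, which no source used here explains.

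Cx3cr1 was, of the 131 clusters, the one with the smallest p in both Cre/+ against wt TAM and Cre/+ TAM against wt TAM, and in neither did it pass the threshold. Its signal (log2 RMA, as all levels here) had a lowest value of 10.74, a median of 11.31 and a highest value of 11.41 in the 6 Cre/+ TAM mice. The 3 Cre/+ OIL mice had 11.15, 11.39 and 11.53. The 6 wt TAM mice had a lowest value of 11.39, a median of 11.71 and a highest value of 11.82. Thus 5 of 6 Cre/+ TAM mice and 1 of 3 Cre/+ OIL mice lay below every wt TAM mouse, 4 of 6 wt TAM mice lay above every Cre/+ mouse, and the ranges overlapped.

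The means of Cx3cr1 were 11.21 ± 0.26 (SD, n = 6) in Cre/+ TAM mice, 11.36 ± 0.19 (SD, n = 3) in Cre/+ OIL mice and 11.64 ± 0.17 (SD, n = 6) in wt TAM mice. For the mean of both Cre/+ groups against wt TAM the log2 difference was -0.36 (95% interval -0.60 to -0.12), a ratio of 0.78 on the linear scale, with an adjusted p of 0.905 in limma over all 32471 clusters. By its p before adjustment Cx3cr1 ranked 175 among all tested clusters. Cre/+ TAM against wt TAM gave -0.43 (-0.69 to -0.17), with an adjusted p of 0.447. Cre/+ OIL against wt TAM gave -0.29 (-0.60 to 0.03), with an adjusted p of 0.933. The difference between the 2 Cre/+ groups was -0.15 (-0.46 to 0.17), so neither a difference between them nor its absence was shown. This value moved with single mice, to -0.05 without Cre/+ TAM mouse 1, -0.06 without Cre/+ OIL mouse 3 and -0.25 without Cre/+ OIL mouse 1, and Cre/+ OIL against wt TAM was -0.18 without Cre/+ OIL mouse 1. All of the intervals over all 15 arrays stayed inside a 2-fold difference.

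As a single value, Cx3cr1 was also compared by two-sided exact permutation tests over mice. The 9 Cre/+ mice against the 6 wt TAM mice gave an exact p of 0.0038, where the smallest p this design allows is 0.0002 (0.0119 for 3 mice against 6). The 6 Cre/+ TAM mice against the 6 wt TAM mice gave an exact p of 0.00433 (smallest possible 0.002165), the 3 Cre/+ OIL mice against the 6 wt TAM mice an exact p of 0.0952, and Cre/+ TAM against Cre/+ OIL an exact p of 0.393. These p-values are for 1 gene and are not adjusted for the number of genes.

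The 2 lowest mice for Cx3cr1 were Cre/+ TAM mouse 1 (10.74) and Cre/+ TAM mouse 2 (11.13), which also had the highest averages of the border-associated macrophage markers. Without both, Cre/+ TAM against wt TAM gave a log2 difference of -0.29 (limma adjusted p = 1.00), and Cre/+ against wt TAM also gave -0.29 (limma adjusted p = 0.974), while Cre/+ TAM against Cre/+ OIL came to -0.006. The animal numbers in the array titles fall into a lower range (Cre/+ TAM mice 1 and 2, all 3 Cre/+ OIL mice and wt TAM mice 1 to 3) and an upper range (the other mice), which no source names as a batch. Within the lower range Cre/+ TAM against wt TAM was -0.67 (limma adjusted p = 0.323), and within the upper range -0.33 (limma adjusted p = 0.919). Leaving out the 3 arrays with neg in their titles leaves 1 Cre/+ OIL mouse, mouse 3, which had the highest Cx3cr1 of its group (11.53). Cre/+ against wt TAM was then -0.25 and Cre/+ OIL against wt TAM -0.09, and both values depend on that mouse.

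**Figure D1:**
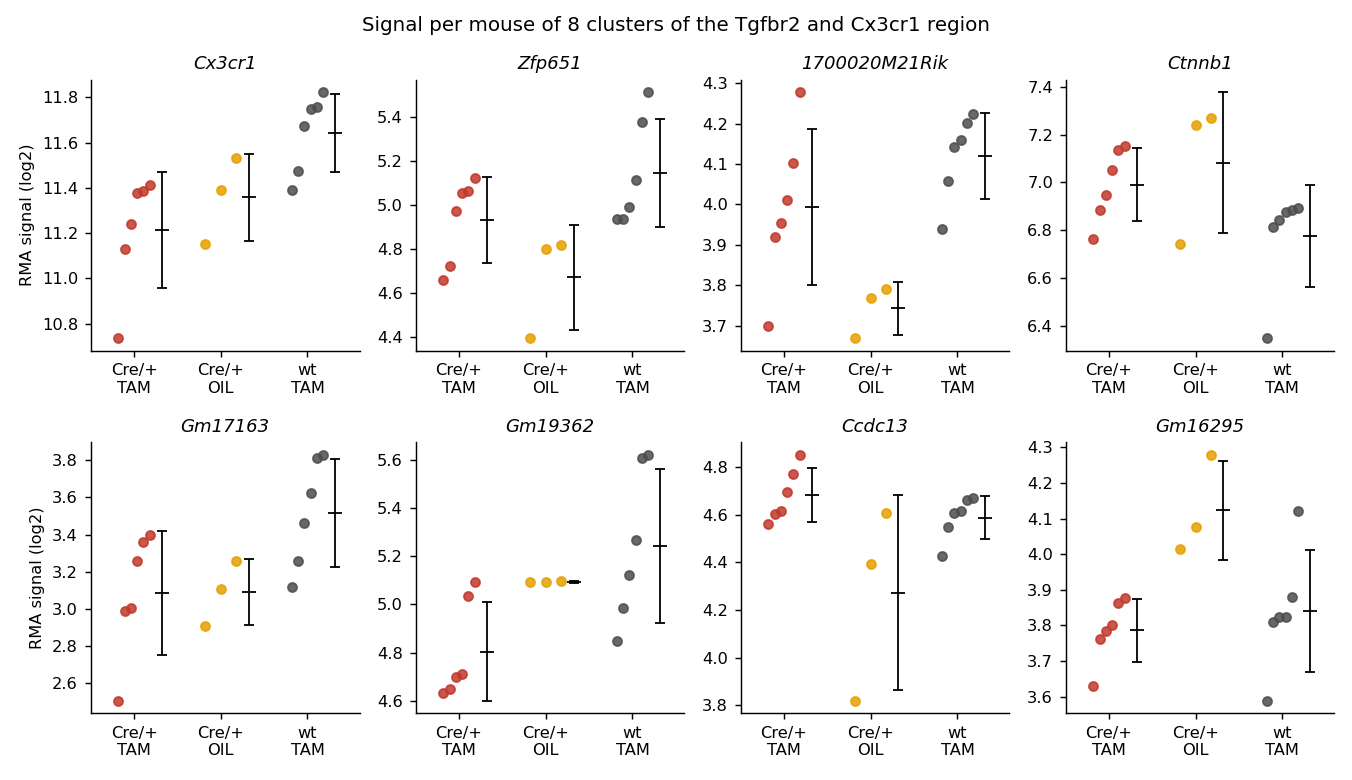
RMA signal (log2, vertical axis) of 8 clusters in each Cre/+ TAM, Cre/+ OIL and wt TAM mouse (points), with the mean and SD of each group beside them (black). For Cx3cr1 the Cre/+ TAM mice lie between 10.74 and 11.41 and the wt TAM mice between 11.39 and 11.82, and vertical axes differ between panels.

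None of the 131 clusters was called at an adjusted p under 0.05 in any of the 4 comparisons, and none reached a 2-fold difference at an unadjusted p under 0.05. Over all tested clusters 11 reached it in Cre/+ against wt TAM and 66 in Cre/+ TAM against wt TAM. In Cre/+ OIL against wt TAM 26 did, and in Cre/+ TAM against Cre/+ OIL 100. At such shares a set of 131 would hold few such clusters or none. In Cre/+ against wt TAM limma called 0 of 131 clusters (0% of all tested clusters were called), with a smallest adjusted p of 0.905 in the region. At an unadjusted p under 0.05 it found 14 of 131 (10.7%), against 5.29% of all tested clusters and 5.21% of the rest of chromosome 9. Of these, 12 had a lower mean in Cre/+ mice (9.16% of the region, 3.02% of all tested clusters) and 2 a higher one (1.53% of the region, 2.27% of all tested clusters). The methods' unpaired test found 12 at an unadjusted p under 0.05 and 0 after adjustment. For the counts of this test, here and below, the share of all tested clusters is not given.

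The count of 14 moved with the scaling. After each array was centred on its median it was 7 (5 lower, 2 higher), against 5.39% of all tested clusters, and after quantile normalization it was 7 (6 lower, 1 higher). Among the 75 clusters whose mean signal was above the median of all tested clusters, 5 were at an unadjusted p under 0.05, which is 6.67%, against 5.04% of all clusters above it. For the count after quantile normalization the share of all tested clusters is not given here. No setting tried called any of the 131 clusters.

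Sizes were small on the log2 scale. The median difference over the 131 clusters was -0.03 in Cre/+ against wt TAM, against -0.01 over all tested clusters, and 58% of the differences were negative, against 53.6%. The half-width of the 95% interval had a median of 0.24, and in all 131 clusters the interval lay within a 2-fold difference in either direction. The same was true of 98.9% of all tested clusters. The lowest difference was -0.43 (Gm17163) and the highest 0.33 (Gm23232).

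**Figure D2:**
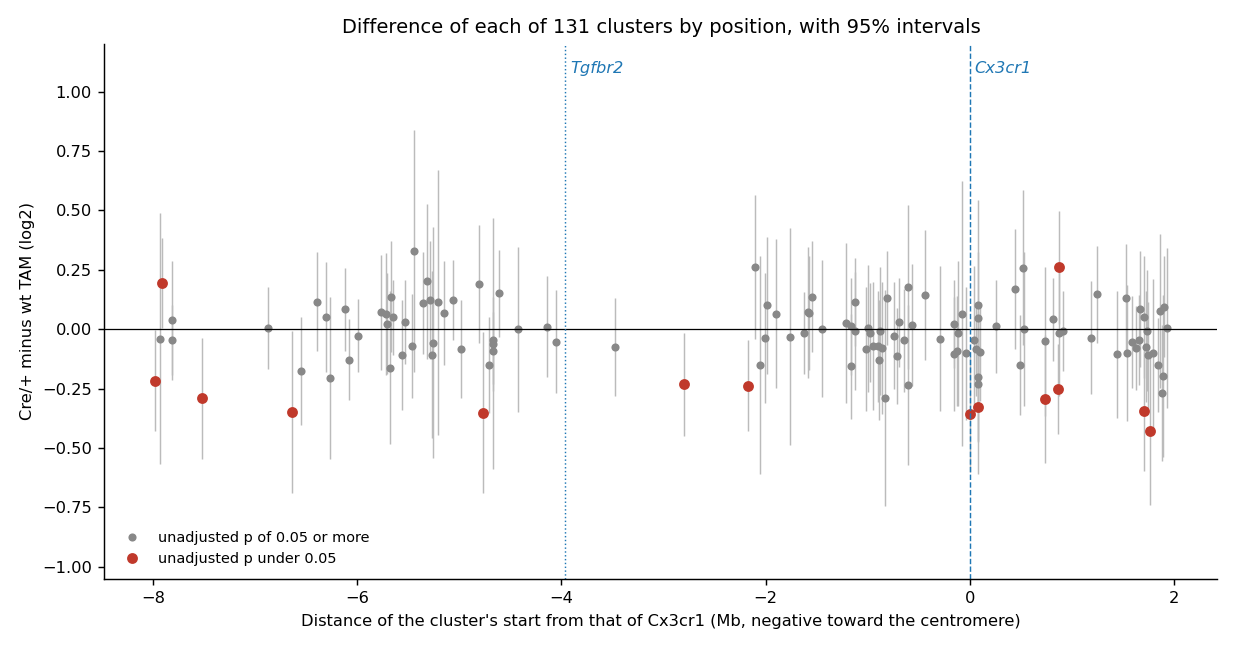
Log2 difference of Cre/+ minus wt TAM (vertical axis, points, with 95% intervals) of the 131 clusters against the distance of each from Cx3cr1 in Mb. The 14 clusters at an unadjusted p under 0.05 (red) start between -7.98 Mb (Arpp21) and 1.77 Mb (Gm17163), and all intervals stay within a 2-fold difference.

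The 14 clusters lay on both sides of each targeted locus. On the centromeric side of Tgfbr2 5 of 44 clusters were at an unadjusted p under 0.05 in Cre/+ against wt TAM, between Tgfbr2 and Cx3cr1 2 of 44, and on the telomeric side of Cx3cr1 6 of 42, Cx3cr1 itself being the remaining one. Within 0.5 Mb of Cx3cr1 it was 1 of 19 clusters (5.26%), and within 1 Mb 4 of 44 (9.09%). Within 1 Mb of Tgfbr2 it was 1 of 11. These shares stand beside 5.29% of all tested clusters and rest on few clusters each.

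The 4 nearest neighbours on each side of Cx3cr1 with a signal above the median had log2 differences between -0.20 (Gm26448) and 0.10 (Gm24044) in Cre/+ against wt TAM. Wdr48, a cofactor of deubiquitinating enzymes, lay at 7.25 to 7.55 in Cre/+ TAM mice, at 7.43, 7.58 and 7.43 in Cre/+ OIL mice and at 7.19 to 7.64 in wt TAM mice, with a difference of 0.02. Gorasp1, a protein of the Golgi stack, had a difference of -0.09, and the predicted gene Gm2449 one of -0.10. Slc25a38, a mitochondrial carrier needed for haem synthesis, had a difference of -0.08. None of these 8 was at an unadjusted p under 0.05, and the groups overlapped in each. The next such cluster beyond them, Snora62, was, with -0.33.

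Csrnp1, an inducible nuclear protein of the same neighbourhood, had a wide spread between mice. It had 5.13 to 6.56 in Cre/+ TAM mice, 5.22, 4.84 and 6.52 in Cre/+ OIL mice and 5.04 to 6.10 in wt TAM mice. Its interval, -0.49 to 0.62 around a difference of 0.07, had a half-width above the median of 0.24 over the region. Without the arrays with neg in their titles, which leaves 1 Cre/+ OIL mouse, the difference of its means was 0.45. Rpsa, a protein of the small ribosomal subunit, had a difference of 0.05, and its probes are annotated as cross-hybridising. The clusters of Snora62, Gm24044 and Gm26448 lie inside Rpsa on the same strand.

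Around Tgfbr2 the neighbours with a signal above the median were Gadl1, Gm5921 and the 2 clusters of Gm26303 on the centromeric side, and Azi2, Cmc1, Golga4 and Itga9 on the telomeric side. Their differences in Cre/+ against wt TAM ran from -0.09 (Gm26303) to 0.15 (Gm5921). Itga9, an integrin subunit, had a difference of 0.00, and Golga4, a tether of the Golgi, one of 0.14. Gm5921 was the only one of them at an unadjusted p under 0.05 in Cre/+ TAM against wt TAM, with 0.21 (0.02 to 0.41), and 4 of 6 Cre/+ TAM mice lay above every wt TAM mouse. Its probes are annotated as cross-hybridising.

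Of the 14 clusters, those of annotated protein-coding genes besides Cx3cr1 were Ctnnb1, Zfp651 and Arpp21. Ctnnb1 encodes beta-catenin, which links cadherins to the cytoskeleton and carries Wnt signals into the nucleus. Its signal was 6.76, 6.999 and 7.15 (lowest, median, highest) in Cre/+ TAM mice, 7.27, 7.24 and 6.74 in Cre/+ OIL mice, and 6.35, 6.86 and 6.89 in wt TAM mice. Here 4 of 6 Cre/+ TAM mice and 2 of 3 Cre/+ OIL mice lay above every wt TAM mouse. The difference was 0.26 (0.02 to 0.50; limma adjusted p = 0.905), and wt TAM mouse 2 stood below its group. Without that mouse the difference was 0.17, and without the arrays with neg in their titles, which leaves 1 Cre/+ OIL mouse, 0.10.

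Zfp651, a zinc finger gene, had 4.66, 5.01 and 5.12 (lowest, median, highest) in Cre/+ TAM mice, 4.39, 4.80 and 4.82 in Cre/+ OIL mice, and 4.93, 5.05 and 5.51 in wt TAM mice. All 3 Cre/+ OIL mice and 2 of 6 Cre/+ TAM mice lay below every wt TAM mouse. Its difference in Cre/+ against wt TAM was -0.34 (-0.59 to -0.09; limma adjusted p = 0.905). Arpp21, a cAMP-regulated phosphoprotein known from neurons, was at 2.73 to 3.10 in Cre/+ TAM mice, 2.91 to 3.18 in Cre/+ OIL mice and 2.99 to 3.53 in wt TAM mice. Its cluster is among the 56 at or below the median signal, and its difference was -0.22 (-0.43 to -0.0042).

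The other 10 include predicted genes, a small nucleolar RNA and RIKEN or LOC transcripts. Gm17163 lies inside Ccdc13 on the opposite strand and had 2.50, 3.13 and 3.40 (lowest, median, highest) in Cre/+ TAM mice, 3.11, 3.26 and 2.90 in Cre/+ OIL mice, and 3.12, 3.54 and 3.83 in wt TAM mice. Its difference was -0.43 (-0.74 to -0.12; limma adjusted p = 0.905), with 4 of 6 wt TAM mice above every Cre/+ mouse. The host gene Ccdc13, a coiled-coil protein gene, had a difference of -0.11 (-0.33 to 0.11) in the same comparison.

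1700020M21Rik, close to Ctnnb1, had 3.70, 3.98 and 4.28 (lowest, median, highest) in Cre/+ TAM mice, 3.79, 3.77 and 3.67 in Cre/+ OIL mice, and 3.94, 4.15 and 4.22 in wt TAM mice. All 3 Cre/+ OIL mice lay below the wt TAM mice, and Cre/+ TAM mice covered the whole wt TAM range. Its difference was -0.25 (-0.44 to -0.06). Gm19362 had 4.63 to 5.09 in Cre/+ TAM mice, 5.09, 5.10 and 5.09 in Cre/+ OIL mice and 4.85 to 5.62 in wt TAM mice, with a difference of -0.29 (-0.56 to -0.03), which was -0.10 in the lower range of animal numbers alone.

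Snora62, a box H/ACA small nucleolar RNA that guides pseudouridylation of ribosomal RNA, had 4.73 to 5.08 in Cre/+ TAM mice, 4.18, 4.73 and 4.95 in Cre/+ OIL mice and 4.74 to 5.46 in wt TAM mice. Its difference was -0.33 (-0.61 to -0.04), beside 0.05 for its host Rpsa. It was -0.22 without Cre/+ OIL mouse 1, -0.20 without the arrays with neg in their titles (1 Cre/+ OIL mouse left) and -0.07 in the lower range of animal numbers alone. LOC102635428, LOC102635502, Gm24957 and Gm22492 had differences between -0.35 (Gm22492) and -0.23 (LOC102635502). Gm20326, which lies inside Arpp21 on the same strand, had a difference of 0.20, opposite in sign to that of Arpp21, and its probes are annotated as cross-hybridising.

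In Cre/+ TAM against wt TAM no cluster of the region was called, against 8 of all tested clusters (0.0246%). At an unadjusted p under 0.05 limma found 6 of 131 (4.58%), against 5.83% of all tested clusters, and the methods' unpaired test found 8. Of the 6, 5 were lower in Cre/+ TAM mice (2.91% of all tested clusters) and 1 was higher (2.92%). The split was 5 to 3 after median centring and 5 to 0 after quantile normalization. For these splits the share of all tested clusters is not given, so whether the region alone moved cannot be read from them. The 6 were Cx3cr1, Gm19362, Gm17163, AU023762 and Arpp21 on the lower side and Gm5921 on the higher side. For Gm19362 4 of 6 Cre/+ TAM mice lay below every wt TAM mouse, with a difference of -0.44 (-0.73 to -0.15; limma adjusted p = 0.563).

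In Cre/+ OIL against wt TAM limma called 0 of 131 clusters, as of all tested clusters (0%), and found 12 of 131 (9.16%) at an unadjusted p under 0.05, against 5.22% of all tested clusters, where the methods' unpaired test found 10. Of these, 8 were lower in Cre/+ OIL mice (2.98% of all tested clusters) and 4 higher (2.24%). After median centring 4 were lower and 6 higher. The share of all tested clusters after centring is not given here, so this turn is not read as particular to the region. The smallest p was that of 1700020M21Rik, with -0.38 (-0.63 to -0.13; limma adjusted p = 0.933). Zfp651 followed with -0.47 (-0.80 to -0.14) and 1700048O20Rik with -0.49 (-0.87 to -0.12). The highest difference was that of Gm23232, 0.72 (0.06 to 1.39), a cluster inside Cnot10 with 1.97 to 3.91 in Cre/+ TAM mice, 3.80, 3.40 and 3.03 in Cre/+ OIL mice and 2.21 to 3.02 in wt TAM mice. Its probes are annotated as cross-hybridising.

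No cluster of the region had all 9 Cre/+ mice beyond all 6 wt TAM mice, against 0.0277% of all tested clusters. None had all 6 Cre/+ TAM mice beyond all 6 wt TAM mice, against 0.465%. All 3 Cre/+ OIL mice lay beyond all 6 wt TAM mice in 4 clusters (3.05%), against 1.95% of all tested clusters. These were 1700020M21Rik and Zfp651, below wt TAM mice, and Gm20326 and Gm23232, above them.

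Cre/+ TAM and Cre/+ OIL mice both carried the Cre allele, and both comparisons share the wt TAM mice. The values are therefore set side by side, and the difference between them was tested as Cre/+ TAM against Cre/+ OIL. The clusters named here were picked by a small p for the mean of both groups. That choice favours differences of the same sign in both, so a shared sign is not read as a result. Gm17163 had -0.43 in Cre/+ TAM mice and -0.43 in Cre/+ OIL mice, and LOC102635428 had -0.20 in Cre/+ TAM mice and -0.27 in Cre/+ OIL mice. Zfp651 had -0.21 in Cre/+ TAM mice and -0.47 in Cre/+ OIL mice, and Gm19362 had -0.44 in Cre/+ TAM mice and -0.15 in Cre/+ OIL mice. Ctnnb1 had 0.21 in Cre/+ TAM mice and 0.31 in Cre/+ OIL mice.

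**Figure D3:**
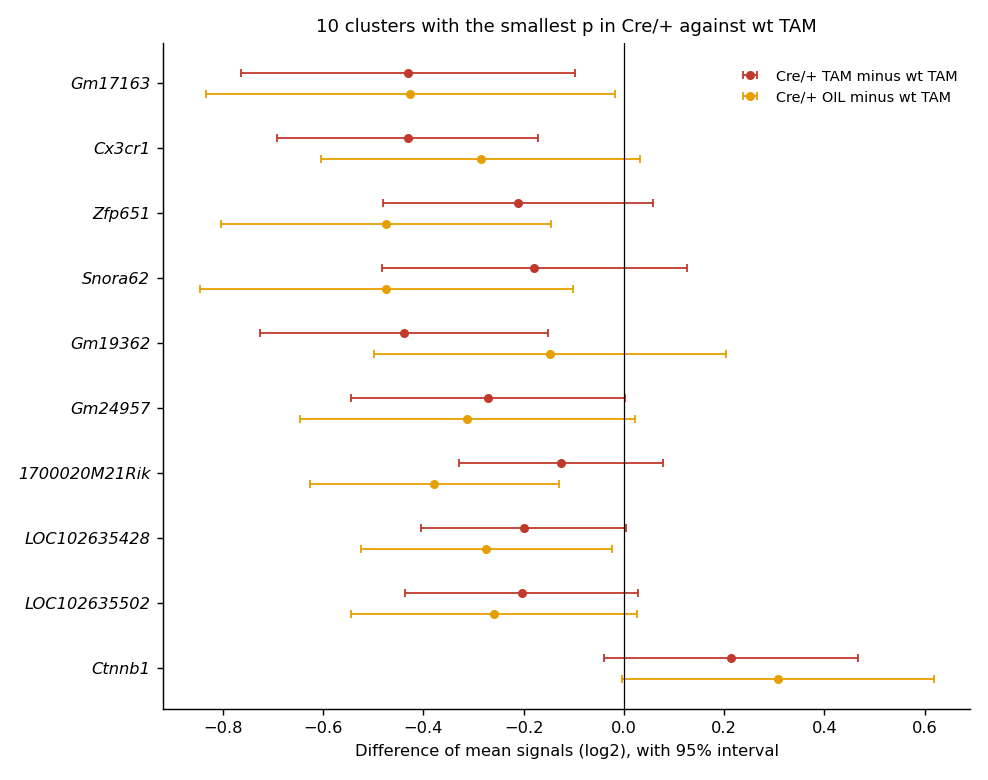
Log2 difference from wt TAM mice with 95% intervals (horizontal axis) for the 10 clusters with the smallest p in Cre/+ against wt TAM, Cre/+ TAM (red, above) and Cre/+ OIL (orange, below) side by side. The intervals of both groups overlap in each cluster, from Gm17163 (-0.43 and -0.43) to Ctnnb1 (0.21 and 0.31).

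The test of Cre/+ TAM against Cre/+ OIL called 0 of 131 clusters (0% of all tested clusters were called). At an unadjusted p under 0.05 limma found 5 of 131 (3.82%), against 5.84% of all tested clusters, and the methods' unpaired test found 6. Of the 5, 2 were lower in Cre/+ TAM mice (2.91% of all tested clusters) and 3 higher (2.93%). After median centring 3 were lower and 2 higher, for which the share of all tested clusters is not given. Ccdc13 had the smallest p, with 4.56, 4.66 and 4.85 (lowest, median, highest) in Cre/+ TAM mice and 3.82, 4.39 and 4.61 in Cre/+ OIL mice, a difference of 0.41 (0.12 to 0.70; limma adjusted p = 0.725). Gm16295 had 3.63, 3.79 and 3.88 in Cre/+ TAM mice and 4.28, 4.01 and 4.07 in Cre/+ OIL mice, so these groups did not overlap, with a difference of -0.34 (-0.58 to -0.09; limma adjusted p = 0.725). The other 3 were Gm23232 (-0.79), 1700048O20Rik (0.45) and 1700020M21Rik (0.25). This count moved most with single mice, as it was 17 without Cre/+ OIL mouse 3 and 3 without Cre/+ OIL mouse 1. The shares of all tested clusters without these mice are not given here, so whether the region alone moved cannot be read from these counts.

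**Figure D4:**
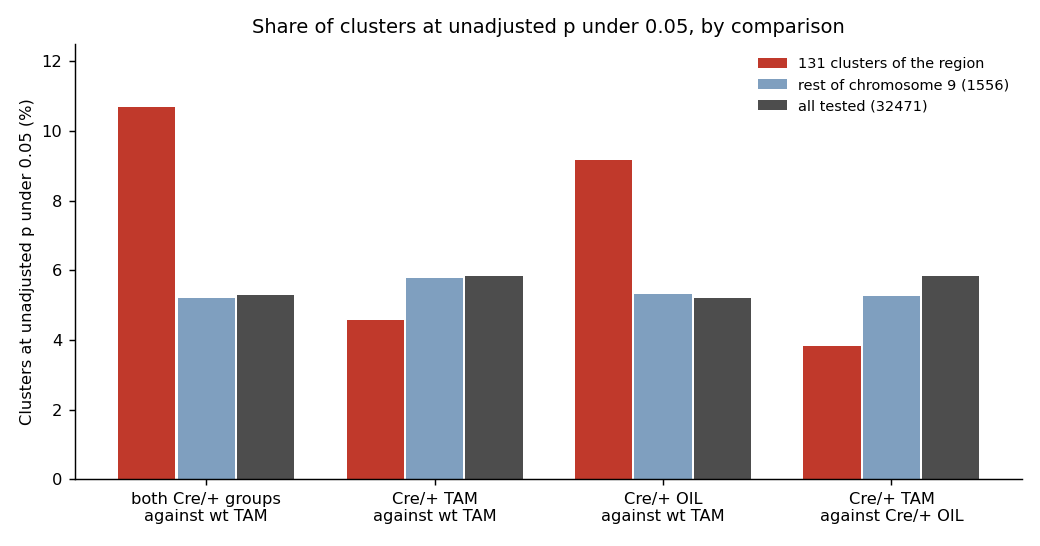
Percentage of clusters at an unadjusted p under 0.05 (vertical axis) in the 4 comparisons for the 131 clusters of the region, the rest of chromosome 9 and all tested clusters. The region stands at 10.7% in both Cre/+ groups against wt TAM and at 9.16% in Cre/+ OIL against wt TAM, and below the others in the comparisons of Cre/+ TAM with wt TAM (4.58%) and with Cre/+ OIL (3.82%).

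Besides Cx3cr1 the region holds the chemokine receptors Ccr4 and Ccr8, known from T cells, and the scavenging receptor Ackr2. Of these 4 genes only Cx3cr1 was at an unadjusted p under 0.05, and none was called. Ccr8, which neighbours Cx3cr1, had 2.69 to 3.40 in Cre/+ TAM mice, 3.13, 2.81 and 3.36 in Cre/+ OIL mice and 2.77 to 3.60 in wt TAM mice, with a difference of -0.04. Ackr2 had a difference of -0.15 (-0.35 to 0.05) and Ccr4 one of -0.11.

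The ligand of Cx3cr1, Cx3cl1, and the proteases that shed it, Adam10 and Adam17, lie outside the region. None of these 3 genes was at an unadjusted p under 0.05 in any of the 4 comparisons, and their differences in Cre/+ against wt TAM ran from 0.03 to 0.08. The cluster used for Adam10 is annotated as cross-hybridising and carries no chromosome number. Cx3cl1 had a mean signal of 4.14, below the median of 4.40 over all tested clusters.

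Genes with a role near TGF-beta signalling were Acvr2b, a type II activin receptor, and Ctdspl, a small phosphatase. Acvr2b had 5.10 to 5.55 in Cre/+ TAM mice, 5.32, 5.31 and 5.33 in Cre/+ OIL mice and 5.03 to 5.57 in wt TAM mice, a difference of -0.05. Ctdspl had a difference of -0.01, with 3.91 to 4.60 in Cre/+ TAM mice, 4.09, 4.66 and 4.30 in Cre/+ OIL mice and 4.09 to 4.44 in wt TAM mice. Neither was at an unadjusted p under 0.05 in any comparison. Mir26a-1, inside Ctdspl, had a difference of -0.08, and Mir128-2, inside Arpp21, one of -0.04. Mir467h had one of -0.06.

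Clusters with a high mean signal besides Cx3cr1 were those of Rps27rt and Eif1, both annotated as cross-hybridising, of the chemokine-like membrane proteins Cmtm6 and Cmtm7, and of Rpl14, a protein of the large ribosomal subunit. Cmtm6 had 9.38, 9.84 and 9.98 (lowest, median, highest) in Cre/+ TAM mice, 9.72, 10.07 and 10.01 in Cre/+ OIL mice and 9.005, 9.81 and 10.08 in wt TAM mice. The groups overlapped, and the difference was 0.20 (-0.13 to 0.53). Rpl14 had 8.84, 8.95 and 9.38 in Cre/+ TAM mice, 8.78, 9.02 and 8.83 in Cre/+ OIL mice and 7.835, 8.85 and 8.95 in wt TAM mice, a difference of 0.26 (-0.07 to 0.59) with wt TAM mouse 2 below the others of its group.

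Of the other groups of genes, none had a member called. At an unadjusted p under 0.05 in any of the 4 comparisons there were 0 of 3 CMTM genes, 0 of 3 sodium channels, 0 of 3 ribosome genes, 0 of 6 genes of lipid metabolism, 0 of 6 genes of the lysosome and secretory pathway, 0 of 6 kinases and signalling genes, 0 of 4 genes of deubiquitination and mRNA decay and 0 of 3 genes of matrix and adhesion. In each comparison 5.22% to 5.84% of all tested clusters were, so that lists this short would hold few such genes or none at the share of all clusters, and nothing particular to them is read from these counts. In Cre/+ against wt TAM the differences of the lysosome and secretory genes ran from -0.09 (Gorasp1) to 0.19 (Stt3b, a subunit of the enzyme that attaches N-glycans). Those of the lipid genes ran from -0.11 (Acaa1a, a peroxisomal thiolase) to 0.08 (Cyp8b1).

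Genes of the region that mark other cell types numbered 8, among them Mobp (oligodendrocytes), Cck and Arpp21 (neurons) and Eomes (lymphocytes and neural progenitors). Only 2 of the 8 had a signal above the median of all clusters, and Arpp21 was the only one at an unadjusted p under 0.05. Mobp, close to Cx3cr1, had 4.17 to 4.495 in Cre/+ TAM mice, 4.12, 4.19 and 4.41 in Cre/+ OIL mice and 4.03 to 4.66 in wt TAM mice, a difference of -0.09. Markers of neurons from outside the region (6 genes, 1 of them at an unadjusted p under 0.05) averaged 4.09 to 4.33 in Cre/+ TAM mice, 4.16 to 4.19 in Cre/+ OIL mice and 4.14 to 4.495 in wt TAM mice, and their part in the value of Arpp21 was not tested.

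The median deviation of the 131 clusters from their wt TAM mean was between -0.05 and 0.03 log2 in the Cre/+ TAM mice, between -0.05 and -0.03 in the Cre/+ OIL mice and between -0.03 and 0.04 in the wt TAM mice. Single clusters deviated in both directions, with an SD over the 131 clusters of 0.22 to 0.30 in the Cre/+ TAM mice, 0.24 to 0.33 in the Cre/+ OIL mice and 0.21 to 0.32 in the wt TAM mice, which are part of that mean. The highest SD was that of Cre/+ OIL mouse 1, which was the highest of its group of 3 in 51 of 131 clusters and the lowest in 51. Among wt TAM mice, mouse 4 was the highest of its group in 40 of 131 clusters and the lowest in 25. Its median over all tested clusters was 4.55, against 4.35 to 4.45 on the other 14 arrays. Without wt TAM mouse 4, 8 of 131 clusters were at an unadjusted p under 0.05 in Cre/+ against wt TAM. The count was also 8 without Cre/+ TAM mouse 2 or without Cre/+ OIL mouse 1, so it is not particular to this array. For these counts the share of all tested clusters is not given here. Among Cre/+ TAM mice, mouse 1 was the lowest of its group in 30 of 131 clusters and mouse 2 in 28.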

How the data were processed

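RNA of sorted adult microglia was amplified, biotin-labelled and hybridised to Affymetrix Mouse Gene 2.0 ST arrays. The authors deposited log2 signals normalized by RMA, per transcript cluster. No source read here names a software version. Columns of the authors' own comparisons (fold changes, p-values) were not used. Of the 131 clusters, 59 hold a value that 2 or more arrays share, against 41.7% of all tested clusters. The 131 clusters have 8 to 52 probes each, and 14 are annotated as cross-hybridising.

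With R 4.3.3 and limma 3.58.1, a mean per group was fitted to all 15 arrays and all 32471 clusters with a gene symbol (lmFit, eBayes), after a test on simulated data. Comparisons were two-sided: the mean of Cre/+ TAM and Cre/+ OIL against wt TAM, each Cre/+ group against wt TAM, and Cre/+ TAM against Cre/+ OIL. A cluster was called where its p, adjusted after Benjamini-Hochberg for all 32471, was under 0.05. Groups are those of the labels, and the animal numbers in the titles give 1 mouse per array, numbered here within its group. Arrays have no sequencing depth, and their number limits the precision. Cx3cr1 was also compared by exact permutation tests.

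Named were Cx3cr1, clusters called or with Cre/+ and wt TAM mice apart, the 12 with the smallest p in Cre/+ against wt TAM and the 6 in each other comparison, the 10 with the highest signal, the 4 nearest above the median signal on each side of Cx3cr1 and Tgfbr2, and lists of genes by role. Gm22492, Pomgnt2 and the microRNA genes fall outside this rule and were named after their values were seen. Of the clusters this rule names, 1 is counted but not reported here by name. The members and lists were chosen with earlier results of these data known. The following were tried in place of these settings: centring each array on its median, normalizing quantiles, using the other deposited value table (log2, equal to within 0.005), leaving out dim clusters, adding clusters without a symbol, keeping 1 cluster per gene, a trended and robust variance, weights for arrays, fitting no other arrays than those compared, both Cre/+ groups as 1, leaving out the arrays with neg in the title, the range of animal numbers as a block and within each range, each array left out, the methods' unpaired test and, chosen after seeing the data, Cre/+ TAM mice 1 and 2 left out and uniquely annotated clusters alone.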

Additional observations from a re-analysis of the deposited data

Results flagged for a closer look

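In each group of 6 mice, a mouse was marked where its gap to the nearest other mouse took up most of the group's range (Dixon's ratio at the 95% level). Over 76 clusters 152 groups were looked at and 14 were marked (9.21%). The level is meant to mark about 1 in 20 groups of normally distributed values. Of the 131 clusters 59 hold a value that arrays share, so that level need not hold here. The share marked over all tested clusters was not determined, and no excess is read from the 9.21%. In Cre/+ TAM mice the lowest values were those of mouse 1 for Cmtm6 (9.38), Cmtm8 (5.56) and Vipr1 (5.47), of mouse 3 for Ctdspl (3.91) and of mouse 4 for Gm24044 (4.45). The highest were those of mouse 2 for Glb1 (6.52), of mouse 5 for Eif1 (10.74) and of mouse 4 for Fbxl2 (4.25). In wt TAM mice the lowest values were those of mouse 4 for Stt3b (6.02), of mouse 5 for Cmc1 (6.04), of mouse 3 for Ctdspl (4.09, the other 5 mice sharing the value 4.44) and of mouse 2 for Rpl14 (7.835) and Ctnnb1 (6.35). Ackr2 was highest in wt TAM mouse 4 (5.12).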

How the results depend on the processing

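Limma called 0 of the 131 clusters under every alternative, in each comparison it was run for. The methods' unpaired test, itself 1 of the alternatives, also called 0 and was not combined with the other settings. The upper range of animal numbers gives Cre/+ TAM against wt TAM alone, both Cre/+ groups as 1 gives Cre/+ against wt TAM alone, and fitting only the arrays compared gives the other 3 comparisons. The log2 difference of Cx3cr1 was negative in each comparison with wt TAM under each of these, and between Cre/+ TAM and Cre/+ OIL it lay between -0.43 (lower range alone) and -0.006 (without Cre/+ TAM mice 1 and 2). Counts at an unadjusted p under 0.05 moved. The share of all tested clusters under the same setting is not given beside them. Whether the region alone or all clusters moved therefore cannot be read from them. Those without the neg arrays rest on 1 Cre/+ OIL array. For Cre/+ against wt TAM (14) the count was 7 after median centring, 7 after quantile normalization, 5 among clusters above the median signal, 5 without the arrays with neg in the title, 9 in the lower range of animal numbers alone, and 8 to 15 with 1 array left out (8 without Cre/+ TAM mouse 2, Cre/+ OIL mouse 1 or wt TAM mouse 4, and 9 without wt TAM mouse 2). For Cre/+ TAM against wt TAM (6) it was 3 above the median signal, 10 with the range of animal numbers as a block, and 4 to 10 with 1 array left out (10 without Cre/+ TAM mouse 3 or wt TAM mouse 4). For Cre/+ OIL against wt TAM (12) it was 4 above the median signal, 5 without the neg arrays, 6 in the lower range alone, and 9 to 17 with 1 array left out. For Cre/+ TAM against Cre/+ OIL (5) it was 1 above the median signal, 8 with only the arrays compared, 1 without the neg arrays, 1 in the lower range alone, 9 without Cre/+ TAM mice 1 and 2, and 3 to 17 with 1 array left out (8 without Cre/+ TAM mouse 2). Ccdc13 in Cre/+ OIL against wt TAM turned to 0.035 without the neg arrays, which leaves 1 Cre/+ OIL array, assumed to vary like the other groups. In Cre/+ against wt TAM, Arpp21 was -0.14 with weights for arrays, 1700020M21Rik -0.39 in the lower range alone, and, without the neg arrays, Gm20326 0.11 and LOC102635428 -0.38. The fewer clusters tested account for the counts above the median signal in part, and the cause of the other moves was not tested. No paired analysis was possible because replicate numbers were given in accession order and pair no mice. Cre/+ OIL has 3 arrays, and the median half-width of the 95% interval was 0.32 log2 in its comparisons, against 0.26 for Cre/+ TAM against wt TAM.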
